A study of Danio rerio with 40 samples.

Results

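The pituitary hormone genes examined here are 8 of the 32520 genes in the count table: pomca, gh1, prl, cga, tshba, smtla, smtlb and pou1f1. They were taken by gene name, and each name matched 1 entry. All 8 were read in whole zebrafish larvae (Danio rerio) at 5 days post fertilization. The larvae were either quadruple knockouts (qKO), of genotype smad3a-/-, smad3b-/-, smad6a-/- and smad6b-/-, or their wt control cousins. Each genotype had 5 pools of 5 larvae grown at 27°C, and total RNA of each pool went into 1 TruSeq Stranded Total RNA library. The genotype is given for the whole fish, not for the pituitary alone. The other 30 samples of the series (adult aortas, and larvae that lack the smad3 or the smad6 pair alone, with their controls) were not analysed here.

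The anterior pituitary, or adenohypophysis, sits under the hypothalamus and releases peptide hormones that set growth, ion balance, metabolism, the stress response and body colour. Each hormone comes from its own cell type. The transcription factor Pit-1, encoded by pou1f1, is needed for the lineages that make growth hormone, prolactin and thyrotropin. Peptides and amines from the hypothalamus stimulate or restrain these cells. The target glands in turn restrain the pituitary through thyroid hormone, cortisol and insulin-like growth factor.

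Library totals ran from 16062147 to 191289475 counts, so 3 counts, taken as the limit for a gene without reads, stood for 0.0157 to 0.187 CPM (counts scaled to a common library total). Levels below are TMM-scaled CPM, in which a factor per library (the trimmed mean of M-values) corrects for composition, unless stated. The targeted smad3a and smad3b were lower in qKO (log2 fold changes of -1.9 and -1.09), whereas smad6a and smad6b transcripts were higher (0.36 and 0.62), with adjusted p from 4.17e-07 to 0.0049 (edgeR). So only the labels, and not transcript levels, give the loss of the smad6 pair. Within each genotype pools 1 and 2 stood apart from pools 3 to 5, as the clock repressor gene nr1d1 shows. It was at 334 and 352 CPM in qKO pools 1 and 2 and at 1.80, 1.59 and 2.62 CPM in qKO pools 3 to 5. Control pools 1 and 2 had 8.93 and 8.44 CPM, and control pools 3 to 5 had 42.0, 48.0 and 45.9 CPM. The labels name no batch for this division. So the tested hormone genes and, from each list, at most 3 called genes with the lowest p are also given within each set, pools 1 and 2 and pools 3 to 5. The sets are not matched between the genotypes: nr1d1 was higher in pools 1 and 2 in qKO, and higher in pools 3 to 5 in controls. Within a set, a genotype difference therefore cannot be told apart from this opposite shift. A whole larva is a mixture of tissues, and fewer cells of a type cannot be told apart from less RNA per cell.

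To ask how the hormone genes differed between the genotypes, counts of all genes were fitted in edgeR (quasi-likelihood), p-values were adjusted over all tested genes by the Benjamini-Hochberg method, and an adjusted p below 0.05 counted as a call. Transcripts for the stress and pigment hormone precursor (pomca), growth hormone (gh1) and the shared alpha subunit (cga) fell in qKO, by 0.87, 0.74 and 0.63 on the log2 scale. Those for prolactin (prl), the thyrotropin beta subunit (tshba) and Pit-1 (pou1f1) did not pass the test. The somatolactin genes smtla and smtlb were too sparse to enter it. Of the 8 genes 6 had enough counts to be tested, and 3 of these 6 were called, all lower in qKO. Over all 22894 tested genes 25.8% were called, 13.4% higher and 12.5% lower. The balance of directions depended on the scaling: 51.7% of the called genes were higher with TMM and 67% with library totals only. It was 46.6% with DESeq2 size factors and 42.6% with upper-quartile scaling. Across all tested genes the median log2 fold change was 0.03.

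**Figure D1:**
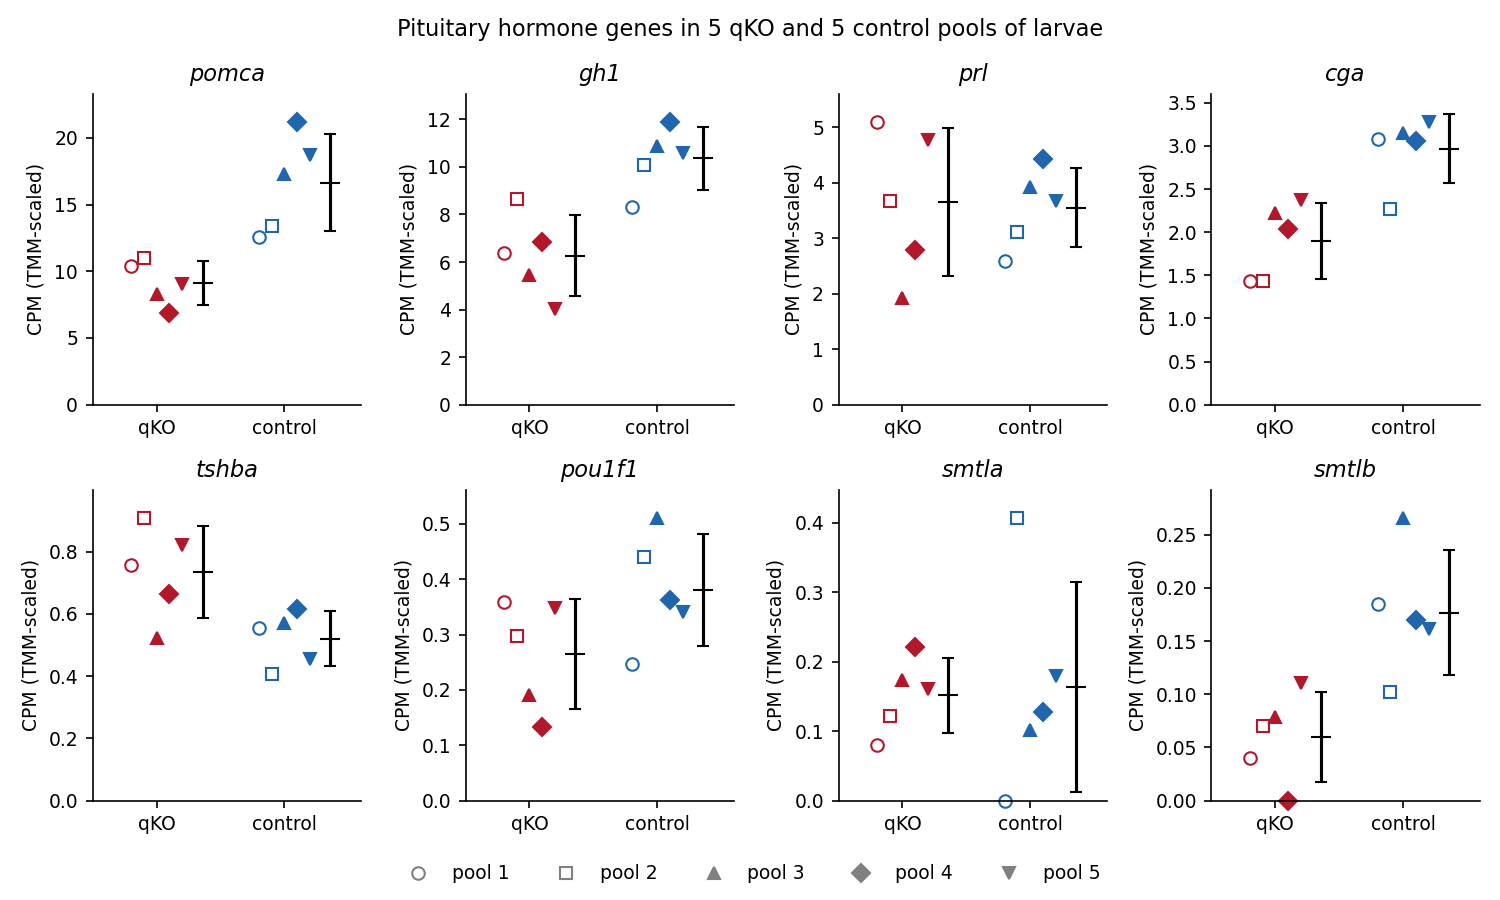
TMM-scaled CPM (vertical axes, linear and starting at 0) of the 8 pituitary genes in 5 qKO pools (red, left) and 5 control pools (blue, right). Each symbol is 1 pool, open for pools 1 and 2 and filled for pools 3 to 5, and black bars are the mean ± SD. The 5 qKO pools lie below every control for pomca, whereas prl, tshba, pou1f1 and the somatolactin genes overlap between the genotypes.

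The pomca gene (ENSDARG00000043135) encodes pro-opiomelanocortin, the precursor of adrenocorticotropin, melanocyte-stimulating hormone and beta-endorphin. It is made in corticotrophs and melanotrophs, and also in hypothalamic neurons. Its level was 10.4, 11.0, 8.32, 6.86 and 9.08 CPM in qKO pools 1 to 5, against 12.6, 13.4, 17.3, 21.2 and 18.7 CPM in control pools 1 to 5. Every qKO pool was below every control pool, and pomca was the only 1 of the 6 tested members without overlap, where 18% of all tested genes had none. The means were 9.14 ± 1.66 CPM in qKO and 16.6 ± 3.65 CPM in controls (SD, n = 5 each). The log2 fold change was -0.87 (SE 0.16, adjusted p = 0.00208, edgeR). The gap was wider in pools 3 to 5, at a log2 fold change of -1.25 (adjusted p = 3e-05, edgeR), than in pools 1 and 2, at -0.28 (adjusted p = 0.176, edgeR). The difference between these values was not tested, and the sets hold opposite nr1d1 levels in the 2 genotypes. Set by nr1d1 instead, qKO pools 1 and 2 (higher nr1d1) had a mean of 10.7 CPM, against 19.1 CPM in control pools 3 to 5. The qKO pools 3 to 5 (lower nr1d1) had 8.09 CPM, against 13.0 CPM in control pools 1 and 2. So the wider gap by pool number cannot be assigned to a set.

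The gh1 gene (ENSDARG00000038185) encodes growth hormone, the product of somatotrophs, which drives insulin-like growth factor production. Its level was 6.37, 8.67, 5.44, 6.86 and 4.03 CPM in qKO pools 1 to 5, against 8.32, 10.1, 10.9, 11.9 and 10.6 CPM in control pools 1 to 5. Of the qKO pools 4 were below every control, and pool 2 lay just above control pool 1. The means were 6.27 ± 1.72 CPM in qKO and 10.4 ± 1.33 CPM in controls (SD, n = 5 each), and the log2 fold change was -0.74 (SE 0.18, adjusted p = 0.00863, edgeR). As for pomca, gh1 was called in pools 3 to 5 (log2 fold change -1.12, adjusted p = 0.000555, edgeR), and not in pools 1 and 2, which gave -0.29 (adjusted p = 0.287, edgeR). Set by higher nr1d1, qKO pools 1 and 2 had a mean of 7.52 CPM, against 11.1 CPM in control pools 3 to 5. Set by lower nr1d1, qKO pools 3 to 5 had 5.44 CPM, against 9.21 CPM in control pools 1 and 2.

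The prl gene (ENSDARG00000037946) encodes prolactin, which in fish in fresh water acts to retain ions. Its level was 5.10, 3.67, 1.93, 2.79 and 4.78 CPM in qKO pools 1 to 5, against 2.59, 3.12, 3.92, 4.43 and 3.68 CPM in control pools 1 to 5. The qKO pools spread both above and below the controls: pools 1 and 5 were higher than every control and pool 3 was lower than every control. The coefficient of variation was 36.4% in qKO and 20.1% in controls. The means were 3.65 ± 1.33 CPM in qKO and 3.55 ± 0.713 CPM in controls (SD, n = 5 each). The log2 fold change was 0.03, with a 95% confidence interval of -0.49 to 0.54 (adjusted p = 0.95, edgeR), so the data allow a moderate change in either direction. Pools 1 and 2 gave 0.57 (adjusted p = 0.103, edgeR) and pools 3 to 5 gave -0.32 (adjusted p = 0.423, edgeR).

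Thyrotropin is a dimer of an alpha subunit, encoded by cga and shared with the gonadotropins, and a beta subunit of its own, encoded by tshba. The cga gene (ENSDARG00000040479) had 1.43, 1.43, 2.22, 2.04 and 2.37 CPM in qKO pools 1 to 5, against 3.08, 2.27, 3.15, 3.06 and 3.28 CPM in control pools 1 to 5. Of the qKO pools 4 were below every control, and pool 5 lay just above control pool 2, which was itself the lowest control. The means were 1.9 ± 0.441 CPM in qKO and 2.97 ± 0.398 CPM in controls (SD, n = 5 each), and the log2 fold change was -0.63 (SE 0.18, adjusted p = 0.0203, edgeR). Unlike pomca and gh1, cga was called in pools 1 and 2 (log2 fold change -0.87, adjusted p = 0.0433, edgeR) and in pools 3 to 5 (-0.54, adjusted p = 0.0132, edgeR). Without control pool 5 its adjusted p was 0.0536 (edgeR).

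The beta subunit did not follow the alpha subunit. The tshba gene (ENSDARG00000033726) had 0.757, 0.909, 0.522, 0.664 and 0.822 CPM in qKO pools 1 to 5, from 15 to 163 counts per pool. Control pools 1 to 5 had 0.554, 0.407, 0.572, 0.617 and 0.455 CPM, from 9 to 48 counts. Of the qKO pools 4 were higher than every control, and pool 3 lay within the controls. The means were 0.735 ± 0.149 CPM in qKO and 0.521 ± 0.0871 CPM in controls (SD, n = 5 each). The log2 fold change of 0.51 (SE 0.23) had an unadjusted p of 0.0425 and did not pass adjustment (adjusted p = 0.115, edgeR). Over all alternatives the adjusted p lay between 0.0554 and 0.422 and the fold change stayed above 0. The log2 fold change was 0.86 in pools 1 and 2 (adjusted p = 0.198, edgeR) and 0.31 in pools 3 to 5 (adjusted p = 0.422, edgeR).

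The pou1f1 gene (ENSDARG00000058924) gave 3 to 69 counts per qKO pool and 4 to 36 counts per control pool. Its level was 0.359, 0.297, 0.190, 0.133 and 0.348 CPM in qKO pools 1 to 5, against 0.246, 0.441, 0.511, 0.362 and 0.341 CPM in control pools 1 to 5. The groups overlapped, with qKO pools 3 and 4 below every control. Counting error alone was wide: the 3 counts of qKO pool 4 have a 95% exact Poisson interval of 0.0298 to 0.422 CPM, in CPM of the library total. The log2 fold change was -0.49 (95% confidence interval -1.14 to 0.17, adjusted p = 0.262, edgeR), an interval that holds both 0 and the value of gh1. Pools 3 to 5 gave -0.65 (adjusted p = 0.208, edgeR), and in pools 1 and 2 the gene had too few counts to be tested.

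Somatolactins are hormones of the growth hormone and prolactin family found in fish, made in the pars intermedia. The smtla gene (ENSDARG00000038191) had 2, 7, 11, 5 and 32 counts in qKO pools 1 to 5, against 0, 12, 5, 6 and 19 counts in control pools 1 to 5. Its mean level was 0.152 ± 0.0536 CPM in qKO and 0.163 ± 0.151 CPM in controls (SD, n = 5 each), and the controls held both the lowest and the highest pool. The smtlb gene (ENSDARG00000017251) had 1, 4, 5, 0 and 22 counts in qKO pools 1 to 5, against 3, 3, 13, 8 and 17 counts in control pools 1 to 5. Its mean level was 0.0599 ± 0.0420 CPM in qKO and 0.177 ± 0.0589 CPM in controls (SD, n = 5 each), with 4 qKO pools below every control. Taken as 3 counts, the limit for the 0 counts of smtlb in qKO pool 4 was 0.145 CPM of the library total. That for the 0 counts of smtla in control pool 1 was 0.187 CPM, both for counting error only. Without the filter on low counts neither gene was called. The adjusted p was 0.844 for smtla (log2 fold change -0.18) and 0.0877 for smtlb (-1.26), both by edgeR. On the GRCz12tu assembly smtla shares a chromosome with smad3b and smad6b, and none of the other 7 members shares a chromosome with a targeted gene.

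**Figure D2:**
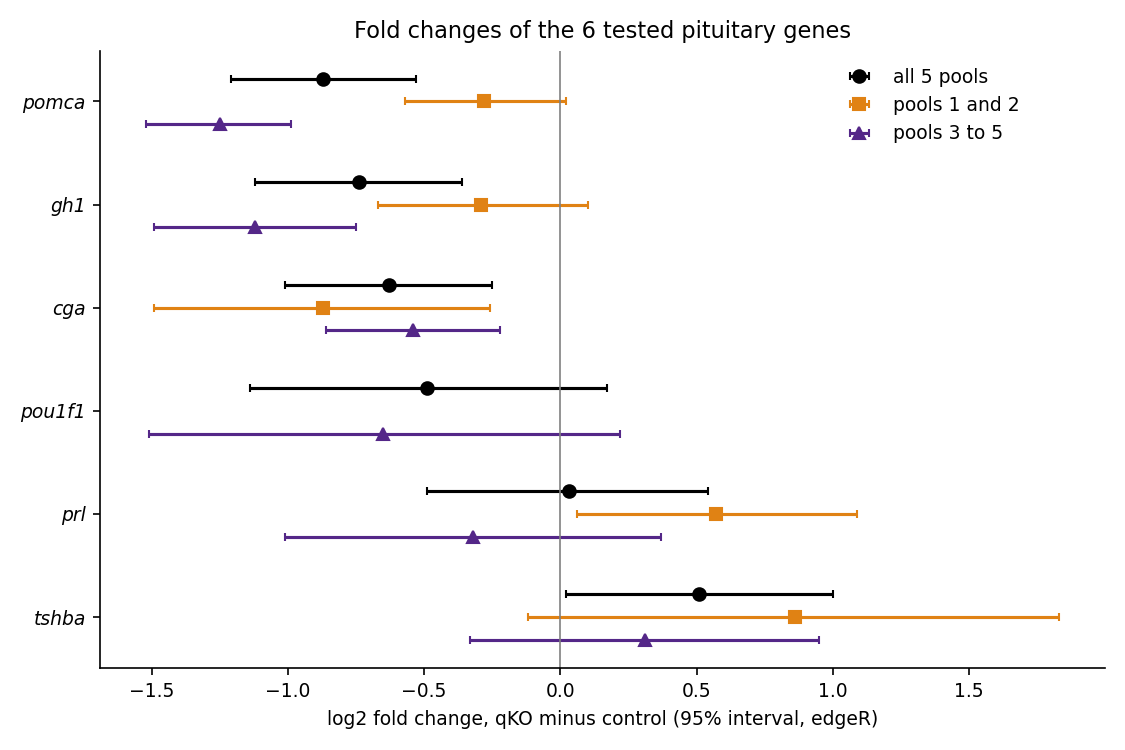
Log2 fold changes of the 6 tested genes (horizontal axis, qKO minus control) with 95% confidence intervals from edgeR, for all pools (black circles), pools 1 and 2 (orange squares) and pools 3 to 5 (purple triangles). The intervals for pomca, gh1 and cga lie below 0 with all pools, and pou1f1 did not pass the filter in pools 1 and 2.

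Ratios of counts within a library do not depend on how libraries are scaled, and 4 such ratios are given as a description with no test, since they were chosen after the values were seen. The ratio of tshba to cga was 0.528, 0.634, 0.236, 0.326 and 0.346 in qKO pools 1 to 5, against 0.180, 0.179, 0.182, 0.201 and 0.139 in control pools 1 to 5. All 5 qKO pools were above every control, and the means were 0.414 ± 0.162 in qKO and 0.176 ± 0.0227 in controls (SD, n = 5 each). The ratio of prl to gh1 was 0.800, 0.423, 0.355, 0.406 and 1.19 in qKO pools 1 to 5, against 0.311, 0.309, 0.361, 0.371 and 0.346 in control pools 1 to 5. Of the qKO pools 4 were above every control, and pool 3 lay within the controls.

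The remaining pair of ratios set pomca against the other major hormones. The ratio of prl to pomca ran from 0.232 to 0.526 in qKO and from 0.197 to 0.234 in controls. That of pomca to gh1 ran from 1.00 to 2.25 in qKO and from 1.32 to 1.78 in controls, around means of 1.54 ± 0.468 in qKO and 1.59 ± 0.190 in controls (SD, n = 5 each). The mean ratio of pomca to gh1 thus differed by less than the spread between pools. Of the counts of all 8 genes, pomca took 35.1% to 44.1% in qKO pools and 44.2% to 50.6% in control pools. The share of prl was 10.2% to 22% in qKO pools and 9.40% to 10.7% in control pools. The share of gh1 was 18.6% to 35.1% in qKO pools and 28.4% to 33.4% in control pools. Summed over the 8 genes, qKO pools had 18.9 to 26.2 CPM and control pools had 27.5 to 41.9 CPM, without overlap. The sum follows pomca and gh1 most, so it is no separate result about the less counted genes.

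**Figure D3:**
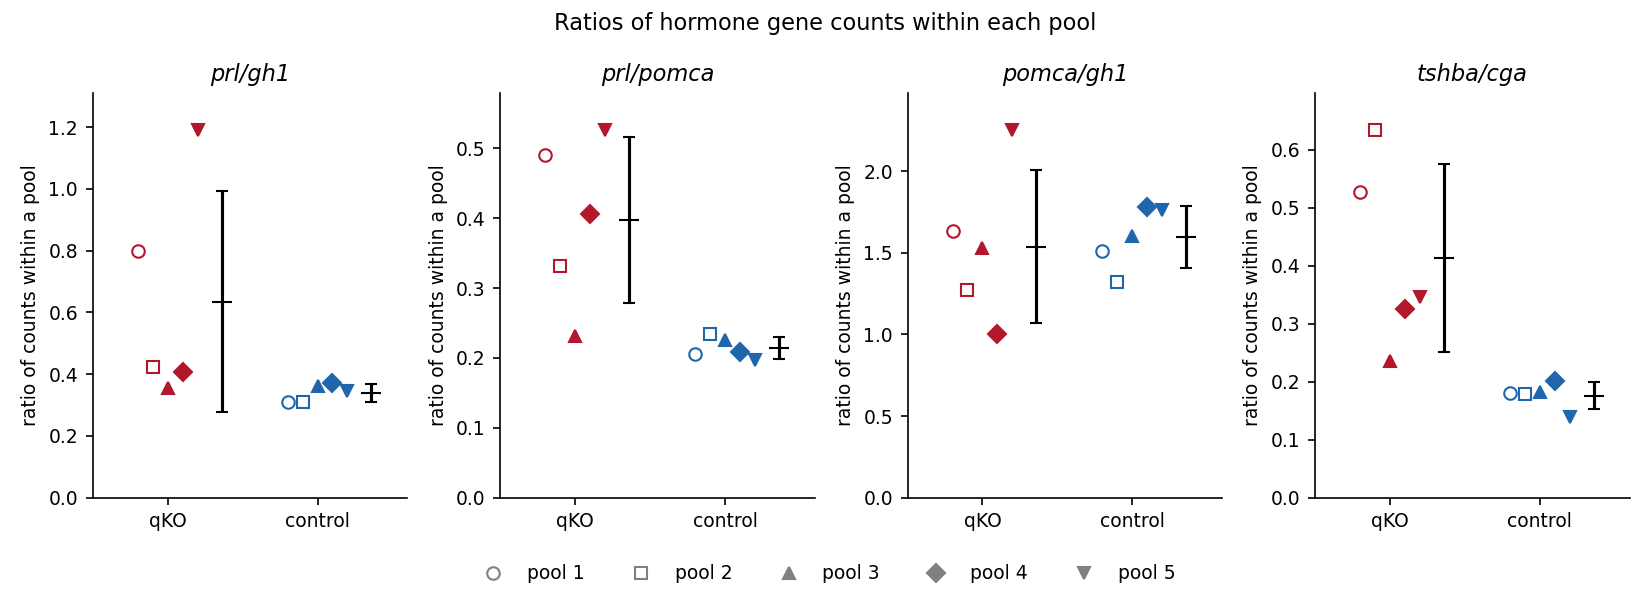
Ratios of counts between hormone genes within each pool (vertical axes, linear and starting at 0) in 5 qKO pools (red, left) and 5 control pools (blue, right). Symbols are pools, open for pools 1 and 2, and black bars are the mean ± SD. The ratio of tshba to cga is above every control in all 5 qKO pools, and every ratio shown spreads more widely in qKO than in controls.

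Once the mean of each genotype and pool set had been subtracted, correlations between the 6 tested members from pool to pool went in both directions. Over the 10 pools, Pearson's r between their log2 CPM ran from -0.65 (gh1 with cga) to 0.64 (prl with pou1f1). The median over the 15 pairs was 0.13, and 9 pairs were positive. These values are a description over pools that share 4 means. The tshba and pou1f1 genes had as few as 9 and 3 counts in a pool, so counting error adds to their spread. This measure therefore cannot show that the members do not vary together. On the same measure the 3 genes of at least 1 CPM most like gh1 were socs2, a feedback inhibitor of growth hormone signalling, raf1a and st3gal4, each with r = 0.98. The closest to prl were si:rp71-39b20.4 (1.00), guk1b (0.99) and sv2ba (0.98), and to pomca hook2 (0.98), CABZ01077217.1 (0.96) and cst3 (0.96). The closest to cga were acyp1 (0.99), pon2 (0.97) and tpmt.2 (0.97). For tshba they were dpysl5b (0.99), brf2 (0.98) and c19h1orf109 (0.97), and for pou1f1 crispld1a (0.98), ddx43 (0.98) and kcnh1b (0.97). They are the highest of about 20115 genes ranked over only 10 pools.

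Markers of the gland other than its hormones, and genes up- and downstream of it, were read next, and the share called in each list stands against the 25.8% called over all tested genes. Among 17 tested pituitary transcription factor genes 2 were called (11.8%), both higher in qKO, with a list median log2 fold change of 0.10. The pitx1 gene, needed for early pituitary and hindlimb development in mouse, was at 24.0 ± 3.77 CPM in qKO and 16.1 ± 0.858 CPM in controls (SD, n = 5 each; log2 fold change 0.58, adjusted p = 0.00172, edgeR). The lhx4 gene rose by 0.40 (adjusted p = 0.0412, edgeR), a call lost when any library but qKO pool 2 was left out (adjusted p up to 0.133). In pools 1 and 2 the log2 fold changes were 0.80 for pitx1 (called) and 0.23 for lhx4 (adjusted p = 0.287, edgeR), and in pools 3 to 5 they were 0.39 and 0.45 (both called). The adenohypophysis markers pitx3 and LHX3, which the lens and motor neurons also express, had log2 fold changes of 0.27 and 0.37 (adjusted p = 0.0765 and 0.066, edgeR). The corticotroph factor gene tbx19 stood at 0.341 ± 0.155 CPM in qKO and 0.487 ± 0.156 CPM in controls (adjusted p = 0.356, edgeR; SD, n = 5 each). The gonadotropin beta subunit genes were nearly silent: lhb had 22 counts over all qKO pools and 30 over all control pools, and fshb had 8 in qKO and 5 in controls. These sums are not scaled for depth. Scaled, lhb was at 0.0388 ± 0.0332 CPM in qKO and 0.127 ± 0.0745 CPM in controls (SD, n = 5 each), with 4 qKO pools below every control. The fshb gene was at 0.0177 ± 0.0215 CPM in qKO and 0.0241 ± 0.0441 CPM in controls (SD, n = 5 each). Both were too sparse to be tested. The second copies pomcb and prl2 had log2 fold changes of -0.24 and 0.01 (adjusted p = 0.63 and 0.984, edgeR).

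Of 23 tested genes for hypothalamic releasing and inhibiting factors, 8 were lower (34.8%, against 12.5% over all tested genes) and 1 was higher in qKO, with a median log2 fold change of -0.20. The crhb gene encodes corticotropin-releasing hormone, which stimulates corticotrophs. Its level was 3.11, 3.46, 3.92, 3.85 and 3.78 CPM in qKO pools 1 to 5, against 6.78, 5.87, 6.13, 7.62 and 6.88 CPM in control pools 1 to 5. The groups did not overlap, and crhb fell by 0.87 on the log2 scale (SE 0.11, adjusted p = 0.000231, edgeR). It was called in pools 1 and 2 (-0.93, adjusted p = 0.0046, edgeR) and in pools 3 to 5 (-0.88, adjusted p = 0.00038, edgeR). The somatostatin gene sst1.1, whose peptide restrains growth hormone release and is also made in the pancreas, was at 11.4 ± 2.66 CPM in qKO and 19.7 ± 2.78 CPM in controls (SD, n = 5 each). It fell by 0.79 (adjusted p = 0.00262, edgeR), called in pools 3 to 5 (-1.21) and not in pools 1 and 2 (-0.25, adjusted p = 0.195, edgeR). The gnrh3 gene, for a gonadotropin-releasing hormone, fell by 0.85 (adjusted p = 0.00449, edgeR), with -0.94 in pools 1 and 2 (adjusted p = 0.0546, edgeR) and -0.85 in pools 3 to 5 (called). The thyrotropin-releasing hormone gene trh stood at 9.55 ± 1.27 CPM in qKO and 9.93 ± 1.62 CPM in controls (SD, n = 5 each; log2 fold change -0.06, adjusted p = 0.775, edgeR).

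Markers of hypothalamic neurons went in both directions. Of 16 tested markers 3 were higher and 1 was lower in qKO, and the share called of 25% was close to the 25.8% over all tested genes. The lists overlap: agrp, oxt, hcrt, avp, npy and th are also among the releasing and inhibiting factors. The agrp gene is also among the melanocortin genes. The adenohypophysis markers LHX3, tbx19 and pitx3 are all among the pituitary transcription factors, so that list adds no separate genes. The lower marker, npy, was already counted among the releasing and inhibiting factors. The developmental regulators otpa and otpb rose by 0.54 and 0.44 (adjusted p = 0.0049 and 0.00599, edgeR), and the neuropeptide gene npy fell by 0.68 (adjusted p = 0.0166, edgeR). Both otp genes were called in pools 1 and 2 (0.75 for otpa and 0.44 for otpb) and in pools 3 to 5 (0.37 and 0.42). The npy value was -0.12 in pools 1 and 2 (adjusted p = 0.723, edgeR) and -1.08 in pools 3 to 5 (adjusted p = 0.000595, edgeR). The summed level of the 16 markers was 177 to 219 CPM in qKO pools and 134 to 175 CPM in control pools. Of this, otpa alone made 49.2 to 73.0 CPM in qKO pools and 35.8 to 49.0 CPM in control pools. The sum thus follows the most abundant markers most. None of the 16 was at 0 in all libraries. The part of these neurons in the lower pomca and crhb levels was not tested.

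Of 22 tested genes for receptors and binding proteins of releasing factors, 3 were called (13.6%), all lower in qKO, and the list median was -0.06. They were crhbp, which binds corticotropin-releasing hormone (-0.39, adjusted p = 0.0138, edgeR), and the somatostatin receptor genes sstr2b (-1.03, adjusted p = 0.0187) and sstr5 (-0.41, adjusted p = 0.0458). The sstr5 call was lost without any of qKO pools 1, 3, 4 and 5 or control pools 3 to 5, with adjusted p up to 0.107. None of the 3 was called in pools 1 and 2, where crhbp was at -0.11, sstr2b at -0.67 and sstr5 at -0.02 (adjusted p = 0.547, 0.258 and 0.94, edgeR). All 3 were called in pools 3 to 5, at -0.63, -1.28 and -0.70. Of 15 tested genes of prohormone processing and secretory granules, 3 were called (20%), all lower in qKO, with a list median of -0.19. They were pcsk1nl, an inhibitor of prohormone convertase (-0.41, adjusted p = 0.00174, edgeR), and the granule protein genes chga (-0.29, adjusted p = 0.0253) and scg3 (-0.23, adjusted p = 0.0397). Both of these last calls were lost without qKO pool 3, 4 or 5 or control pool 4 or 5, and that of scg3 also without qKO pool 2 or control pool 3, with adjusted p up to 0.0689 for chga and 0.0978 for scg3 (edgeR). In pools 1 and 2 the values were -0.32 for pcsk1nl (called), -0.01 for chga and -0.03 for scg3 (adjusted p = 0.949 and 0.837, edgeR). In pools 3 to 5 they were -0.51, -0.50 and -0.40, all called. The convertase genes pcsk1 and pcsk2, which cleave pro-opiomelanocortin, had log2 fold changes of -0.32 and 0.15 and were not called (adjusted p = 0.105 and 0.237, edgeR).

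**Figure D4:**
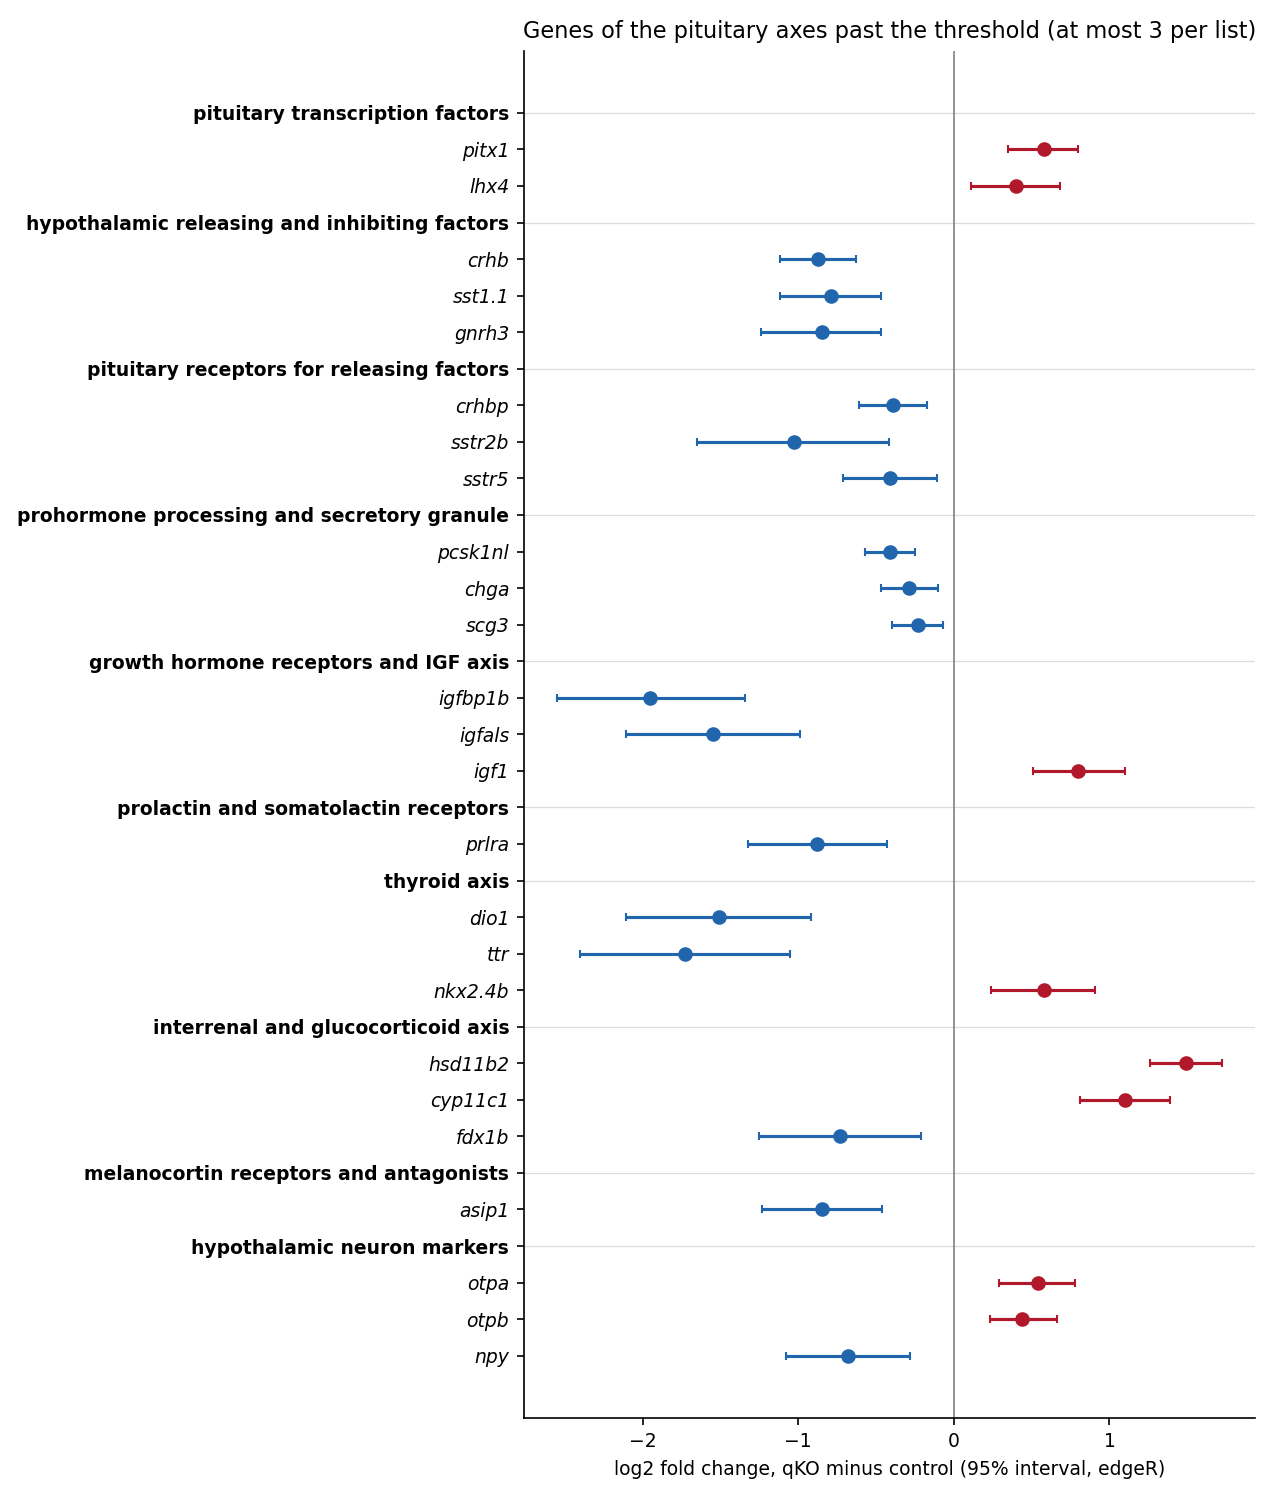
Log2 fold changes (horizontal axis, qKO minus control) with 95% confidence intervals from edgeR for the called genes of each pituitary axis list, at most 3 per list with the lowest p. Red points are higher and blue points lower in qKO; the releasing factor, receptor and granule genes shown lie below 0, and hsd11b2, cyp11c1 and igf1 lie above it.

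Downstream of growth hormone, 4 of 20 tested genes of the receptors and the insulin-like growth factor axis were called (20%), 2 higher and 2 lower, with a list median of 0.08. The igf1 gene, for the growth factor that growth hormone induces in liver, was higher in qKO, where gh1 was lower. Its level was 2.83, 3.11, 3.16, 3.89 and 3.70 CPM in qKO pools 1 to 5, against 1.66, 1.83, 2.1, 1.85 and 2.04 CPM in control pools 1 to 5, without overlap. It rose by 0.80 (SE 0.14, adjusted p = 0.00134, edgeR), with 0.76 in pools 1 and 2 and 0.80 in pools 3 to 5. Of the genes for binding partners of the growth factor, igfbp1b, which is induced by fasting, fell by 1.95 (adjusted p = 0.000565, edgeR) and igfals fell by 1.55 (adjusted p = 0.00127, edgeR). In contrast, igfbp3 rose by 0.34 (adjusted p = 0.00671, edgeR; not computed within the pool sets), and igfbp1a, igfbp2a, igfbp2b, igfbp5a and igfbp5b were not called (log2 fold changes from -0.17 to 0.09). In pools 1 and 2 igfbp1b was at -1.25 and igfals at -1.01, and in pools 3 to 5 they were at -2.62 and -2.0, all called. The growth hormone receptor genes ghra and ghrb had log2 fold changes of -0.10 and 0.31 and were not called (adjusted p = 0.751 and 0.153, edgeR). Of the prolactin receptor genes, prlra fell by 0.88 (adjusted p = 0.00974, edgeR), with -0.26 in pools 1 and 2 (adjusted p = 0.128, edgeR) and -1.41 in pools 3 to 5 (adjusted p = 6.09e-06, edgeR). The other gene, prlrb, was at 1.06 ± 0.273 CPM in qKO and 0.997 ± 0.0875 CPM in controls (adjusted p = 0.895, edgeR; SD, n = 5 each).

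In the thyroid axis 5 of 19 tested genes were called, 3 higher and 2 lower in qKO, with a list median of 0.12. The share of 26.3% was close to the 25.8% over all tested genes. The dio1 gene, for the deiodinase that converts thyroid hormone in liver and kidney, was at 9.88, 14.9, 6.03, 5.66 and 6.17 CPM in qKO pools 1 to 5. Control pools 1 to 5 had 22, 17.2, 28.7, 28.5 and 25.2 CPM. The groups did not overlap, and dio1 fell by 1.51 (SE 0.27, adjusted p = 0.00278, edgeR). The value was -0.63 in pools 1 and 2 (adjusted p = 0.0548, edgeR) and -2.23 in pools 3 to 5 (adjusted p = 1.89e-07, edgeR). The thyroid hormone carrier gene ttr fell by 1.73 (adjusted p = 0.00291, edgeR), and the thyroid factor gene nkx2.4b rose by 0.58 (adjusted p = 0.0163, edgeR, and 0.0514 without qKO pool 5). In pools 1 and 2 the values were -1.25 for ttr (called) and 0.61 for nkx2.4b (adjusted p = 0.0913, edgeR), and in pools 3 to 5 they were -2.03 and 0.54 (both called). The thyroglobulin gene tg, the product of the thyroid itself, was at 20.5 ± 2.57 CPM in qKO and 20.7 ± 6.80 CPM in controls (SD, n = 5 each; log2 fold change -0.01, adjusted p = 0.985, edgeR).

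In the interrenal gland, the fish counterpart of the adrenal cortex, adrenocorticotropin from pomca drives cortisol synthesis. Of 20 tested genes of this axis 2 were higher and 1 was lower in qKO (15% called), with a list median of -0.12. The hsd11b2 gene, for the enzyme that inactivates cortisol, was at 49.8, 41.0, 37.1, 36.4 and 32.6 CPM in qKO pools 1 to 5, against 13.9, 15.3, 13.6, 12.8 and 14.5 CPM in control pools 1 to 5. It rose by 1.49 (SE 0.11, adjusted p = 2.76e-06, edgeR). The cyp11c1 gene, for the last step of cortisol synthesis, rose by 1.1 (adjusted p = 0.000145, edgeR), at 9.51 ± 1.5 CPM in qKO and 4.38 ± 0.590 CPM in controls (SD, n = 5 each). Both were called in pools 1 and 2 (1.62 for hsd11b2 and 1.39 for cyp11c1) and in pools 3 to 5 (1.33 and 0.88). The fdx1b gene, for the electron donor of steroid synthesis, fell by 0.73 (adjusted p = 0.0412, edgeR). That call was lost without any of qKO pools 2 to 5 or control pools 3 to 5, with adjusted p up to 0.119. The fdx1b value was 0.05 in pools 1 and 2 (adjusted p = 0.949, edgeR) and -1.11 in pools 3 to 5 (adjusted p = 0.00424, edgeR). The cholesterol transport gene star and the cortisol receptor gene nr3c1 were not called (log2 fold changes of -0.63 and -0.08, adjusted p = 0.0727 and 0.398, edgeR). Also not called was fkbp5 (0.95, adjusted p = 0.391, edgeR), which ran from 9.34 to 267 CPM in qKO pools and from 49.9 to 86.9 CPM in control pools. Summed over all genes of this list, qKO pools had 366 to 987 CPM and control pools had 594 to 703 CPM. Of 8 tested genes for melanocortin receptors and antagonists, asip1, whose protein blocks melanocortin action in skin, was the only 1 called (12.5%). It fell by 0.85 (adjusted p = 0.00446, edgeR), with -1.11 in pools 1 and 2 and -0.76 in pools 3 to 5, both called, and the list median was -0.24.

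The called genes with the lowest p, at most 3 per list, were 25 genes, and igfbp3 is not among them. Of these 25 genes, 25 were also called with pools 3 to 5 alone, and 12 with pools 1 and 2 alone. The genes were chosen by a fit that holds these same pools, so neither count is an independent repeat. Over all tested genes, 9551 were called with pools 3 to 5 alone, against 5910 with all pools. When pools 1 and 2 and pools 3 to 5 were each summed to 1 sample per genotype, all 8 members had enough counts to be tested. Of the 25 genes 5 were called there, and none of the 8 members. In that comparison, with 2 sums per genotype, the adjusted p was 0.125 for pomca, 0.213 for gh1 and 0.333 for cga (edgeR), with log2 fold changes of -0.74, -0.73 and -0.63.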

How the data were processed

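Per the labels' protocols, each TruSeq Stranded Total RNA library was made from 200 ng of column-purified RNA. The authors deposited raw read counts per Ensembl gene. The submitters' processing notes name GRCz11, FastQC 0.11.9, Trim Galore 0.6.6, featureCounts, Subread 2.0.0 and MultiQC 1.9. The aligner and the use of strand are not given in the sources used here, so overlapping genes are uncertain. Every entry named a gene. No sequence or length was at hand, so none is printed and levels were not ranked between genes.

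Counts were filtered with filterByExpr, scaled by TMM and compared without covariates by the robust quasi-likelihood test of edgeR 4.0.16 (R 4.3.3), on all genes. Standard errors came from the test statistic. The smallest chi-square per degree of freedom between pools of a genotype was 5.73, so no pair of libraries differed by counting error alone. This value cannot show whether libraries came from separate RNA. The labels call the pools biological replicates. Alternatives used limma 3.58.1 and DESeq2 1.42.0. Tested on simulated counts for this comparison, the fit called 86 of 100 genes changed by 1 on the log2 scale and 81 of 100 changed by 0.75 (genes above 50 counts at median depth), and 8 of 22552 unchanged genes. The simulated libraries were drawn independently, without a division into pool sets. So false calls that such a division could give were not tested, and neither was the recovery of changed genes with fewer counts.

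The members, lists and the pool division were chosen with earlier results of these data known. Genes named were all 8 members and, per list, at most 3 called genes with the lowest p. Names given outside that rule (igfbp3, gonadotropin, receptor and other genes) were chosen after their values were seen, to show what lay beside the calls. Likeness used log2 CPM with a prior count of 2.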

Additional observations from a re-analysis of the deposited data

Results flagged for a closer look

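In groups of 5 pools, a value was marked when its gap to the nearest pool exceeded 0.71 of the group's range (Dixon's rule), which chance gives in about 5% of groups. Of 62 groups (6 members and 25 named genes in both genotypes) 3 were marked, about the number chance gives. Control pool 2 had 2.27 CPM of cga, against 3.06 to 3.28 CPM in the other 4 controls. Quadruple-knockout pool 5 had 0.484 CPM of igfals, far below the other 4 qKO pools. The same pool had 4.46 CPM of nkx2.4b, against 3.76 to 3.91 CPM in the other 4 qKO pools.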

How the results depend on the processing

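The hormone genes called lower in qKO were 3 under every scaling, filter and test tried, with limma-voom, DESeq2 and thinned counts included. They were 2 to 3 when each library was left out in turn, 1 (cga) with pools 1 and 2 alone and 0 with the pool sets summed. Over all tested genes, 4754 of 22184 were called with pools 1 and 2 alone and 9551 of 23104 with pools 3 to 5 alone. With the sets summed 700 of 24580 were called, against 5910 of 22894 with all pools. The cause of these unlike counts was not tested. The near-zero prl log2 fold change of 0.03 turned to -0.01 with upper-quartile scaling, 0.00 without a filter, -0.02 with limma-voom, -0.03 with the replicate block, -0.07 with thinned counts and -0.32 in pools 3 to 5. Leaving out each library gave -0.13 to 0.17. The fdx1b value was 0.05 in pools 1 and 2. Over all alternatives, 0 to 5 pituitary transcription factor genes were called against 2 as reported, 0 to 14 releasing factors against 9, 0 to 5 receptors against 3, 0 to 9 granule genes against 3, 1 to 10 growth axis genes against 4, 0 to 1 prolactin receptors against 1, 1 to 8 thyroid genes against 5, 2 to 8 interrenal genes against 3, 0 to 3 melanocortin genes against 1, 1 to 6 hypothalamic neuron markers against 4 and 0 to 2 adenohypophysis markers against 0. Same-numbered pools did not deviate together (r from -0.15 to 0.00), and no pool of either genotype correlated best with its own number. Only the mean of each genotype was subtracted for these r values. The opposite shift of the pool sets could therefore hide a pairing, and its absence is not shown. With the number as a replicate block the count of all genes called, qKO against control larvae, was 4543, and 3 hormone genes were called. Depth limits smtla, smtlb and pou1f1 most.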

Other observations

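Further releasing factor genes that passed the test were chosen for mention after their values were seen. The kisspeptin gene kiss1 was at 0.258 ± 0.112 CPM in qKO and 0.610 ± 0.170 CPM in controls (SD, n = 5 each; log2 fold change -1.19, adjusted p = 0.0127, edgeR). The other kisspeptin gene of the list, kiss2, was not called (log2 fold change -0.14, adjusted p = 0.836, edgeR). The melanin-concentrating hormone genes pmch and pmchl fell by 0.54 and 0.75 (adjusted p = 0.0478 and 0.028, edgeR), and the somatostatin gene sst1.2 fell by 0.55 (adjusted p = 0.0353, edgeR). The midbrain gonadotropin-releasing hormone gene gnrh2 was the only 1 of its list that was called higher. It stood at 1.74 ± 0.653 CPM in qKO and 0.900 ± 0.238 CPM in controls (log2 fold change 0.98, adjusted p = 0.0205, edgeR; SD, n = 5 each). In the remaining lists pax2a, thrab and sim1a rose by 0.25, 0.40 and 0.47 (adjusted p = 0.0178, 0.0266 and 0.0198, edgeR). These are values over all pools, and values within the pool sets were not computed for these genes.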
